A study of Mus musculus with 15 samples.

Results

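*Myo3b*, *Slc6a2*, *Kcng1* and *Acsbg1* are 4 of the 16729 genes measured by RNA-seq in mouse endometrial epithelial organoids. They were chosen by their measured levels in these same samples, which were high in organoids with intact SMAD2/3 signaling and low or listed at 0 in organoids in which that signaling was deleted, inhibited or both. Those levels are therefore given as a description, and no test of their differences between groups is reported. Each symbol matched 1 row of the expression matrix through its Ensembl identifier, so all 4 genes were found.

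Organoids were grown in Matrigel from uterine epithelial cells of single mice. Control mice carried Smad2flox/flox; Smad3flox/flox, and *Smad2/3* cKO mice carried the same floxed alleles with Ltfcre/+. Ltfcre is a Cre recombinase driven by the lactoferrin gene, active in the uterine epithelium of adult mice and at younger ages if estradiol is given. The study gave its mice estradiol around weaning to induce it. Each genotype was cultured with DMSO vehicle or with 500 nM A83-01, an inhibitor of the receptor kinases ALK4, ALK5 and ALK7. The groups were control + vehicle (n = 3), control + A83-01 (n = 4), *Smad2/3* cKO with vehicle (n = 4) and *Smad2/3* cKO + A83-01 (n = 4). The study kept its mice on a mixed genetic background and gives an age range in weeks for its adult mice in general. No age is stated for these donors in particular. By the mouse numbers in the labels, replicates 1, 2 and 3 of both control groups came from the same 3 mice and control + A83-01 replicate 4 from another. *Smad2/3* cKO replicate 2 and *Smad2/3* cKO + A83-01 replicate 1 share a number, and *Smad2/3* cKO replicate 1 carries the number of control replicate 1 although the genotype differs.

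Levels are normalized counts, that is, reads estimated for a gene and scaled by the size factor of its sample, and they summed to 20241800 to 24423100 per sample. *Smad2* ranged from 1045 to 1335 in control + vehicle organoids and from 821 to 924 in *Smad2/3* cKO organoids, and *Smad3* from 1532 to 1741 and from 1170 to 1977. The log2 difference of *Smad2/3* cKO from control + vehicle was −0.41 for *Smad2* (adjusted p = 0.0656) and −0.07 for *Smad3* (adjusted p = 0.827). These values cover the whole gene and cannot show the loss of the floxed exons, so they do not check the genotype labels. The 11 epithelial markers were all in the matrix, none was at 3 or less in all samples of a group, and their summed levels were 266572 to 342210 in control + vehicle and 145163 to 293663 in the other groups. Genes were called at a Benjamini-Hochberg adjusted p below 0.01 from limma and a fold above 1.4 or below 0.714. Against control + vehicle, the epithelial marker *Cldn4* fell in *Smad2/3* cKO (log2 difference −2.55) and in *Smad2/3* cKO + A83-01 (−1.74). *Krt8* (−1.37) and *Krt19* (−1.62) fell and *Pax8* rose (0.86) in *Smad2/3* cKO + A83-01. The other epithelial markers were not called.

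SMAD2 and SMAD3 are transcription factors that the activin and TGFβ type I receptors phosphorylate, and they enter the nucleus with SMAD4 to raise or lower the transcription of target genes. In the uterine epithelium this pathway restrains growth and takes part in receptivity. The 4 genes described here encode proteins of unrelated function: an actin motor, a noradrenaline transporter, a modifier subunit of voltage-gated potassium channels and an acyl-CoA synthetase.

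On GRCm38, which is not the build of the authors' alignment (GRCm39), *Myo3b* (ENSMUSG00000042064) lies on chromosome 2 from 70039126 to 70429198, plus strand, and its longest coding transcript has 35 exons. *Kcng1* (ENSMUSG00000074575) lies on the same chromosome from 168260117 to 168281736, minus strand, with 3 exons. *Slc6a2* (ENSMUSG00000055368) lies on chromosome 8 from 92960079 to 93001667, plus strand, with 14 exons, and *Acsbg1* (ENSMUSG00000032281) on chromosome 9 from 54604877 to 54661870, minus strand, with 14 exons. The only annotated gene overlapping any of them was *Gm13631*, on the strand of *Myo3b* and with no row in the matrix.

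Promoter sequence was matched by symbol in the RefSeq table for GRCm38.p6, which held 2 of the 4 genes, *Myo3b* and *Acsbg1*. The 250 bases before each start site are shown because the genes were low together without SMAD2/3 signaling, and SMAD proteins are known to bind GTCTG and the GC-rich letters GGCGC. Capitals mark a match on either strand to GTCTG, to GGCGC, to the AP-1 element TGANTCA or to the TATA box letters TATAAA, with no overlap between matches. The windows are chr2:70038876-70039125 (plus strand) and chr9:54661886-54662135 (minus strand), each written 5′ to 3′ on the strand of its gene.
Myo3b: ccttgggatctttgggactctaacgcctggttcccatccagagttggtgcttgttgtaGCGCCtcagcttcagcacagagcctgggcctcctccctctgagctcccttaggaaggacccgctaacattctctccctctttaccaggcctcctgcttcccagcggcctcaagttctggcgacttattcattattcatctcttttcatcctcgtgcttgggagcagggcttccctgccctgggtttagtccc
Acsbg1: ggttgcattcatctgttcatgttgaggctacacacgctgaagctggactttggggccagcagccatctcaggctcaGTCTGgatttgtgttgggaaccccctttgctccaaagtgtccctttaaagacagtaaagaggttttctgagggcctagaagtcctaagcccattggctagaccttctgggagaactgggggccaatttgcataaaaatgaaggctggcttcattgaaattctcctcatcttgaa

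The *Myo3b* window held 1 match, to GGCGC on the opposite strand, and the *Acsbg1* window held 1 match, to GTCTG. Among the 32851 windows of the same length in the table, 32.02% held GGCGC and 42.2% held GTCTG on either strand, so a single match is common. TGANTCA was held by 6.75% of windows and TATAAA by 12.4%. The *Myo3b* window had a GC content of 56%, and 6 CpG dinucleotides, the median over all windows. The *Acsbg1* window had 48.4% GC and 1 CpG, fewer than most windows had, since only 7.87% had fewer still.

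*Myo3b* encodes myosin IIIB, a motor with a kinase domain that moves along actin bundles toward the tips of protrusions and is best known from stereocilia. In control + vehicle organoids its normalized count was 1268, 1959 and 2251 in replicates 1, 2 and 3. With A83-01 it was 5.78, 40.8 and 20.4 in organoids of the same 3 mice and 10.4 in the other mouse. *Smad2/3* cKO organoids had 5.52, 0, 20.5 and 3.87, and with A83-01 added 22.1, 0, 6.65 and 5.32. All 3 control + vehicle samples lay far above the other 12, and the other 3 groups overlapped each other. The means were 1826 ± 505 (SD, n = 3), 19.3 ± 15.6 (SD, n = 4), 7.48 ± 8.996 (SD, n = 4) and 8.52 ± 9.50 (SD, n = 4). Relative to control + vehicle the mean was 94.4-fold lower with A83-01, 244-fold lower in *Smad2/3* cKO and 214-fold lower in *Smad2/3* cKO + A83-01. Within a mouse, the level without the inhibitor was 219, 48.0 and 110 times the level with it. The lowest control + vehicle sample was still 31.1 times the highest sample with A83-01. In these bulk samples fewer cells that express a gene and less of its RNA per cell cannot be told apart.

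*Slc6a2* encodes the noradrenaline transporter, which returns noradrenaline from the extracellular space into sympathetic neurons and some other cells. Its normalized count was 116, 136 and 95.3 in the 3 control + vehicle samples, a mean of 116 ± 20.5 (SD, n = 3). It was listed at 0 in each of the other 12 samples, so no fold is given. The spread between the 3 control + vehicle samples was the smallest of the 4 genes, with a coefficient of variation of 17.7%, against a median of 19.6% over 12952 genes. A normalized count of 3 was taken as the floor, below which a level was not distinguished from 0. Of the whole matrix, 7 genes were above 0 in all 3 control + vehicle samples and at 0 in all 12 others. Of these 7, *Slc6a2* was the only one at 20 or more in every control + vehicle sample.

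*Kcng1* encodes Kv6.1, a subunit that forms no channel of its own and changes the gating of Kv2 channels when it assembles with them. Its normalized count was 104, 150 and 551 in control + vehicle replicates 1, 2 and 3. With A83-01 it was 3.31, 0.979 and 0.848 in the same mice and 0.907 in the other mouse. It was listed at 0 in all 8 samples of both *Smad2/3* cKO groups. The control + vehicle mean of 269 ± 246 (SD, n = 3) rested largely on replicate 3, without which it was 127, and the coefficient of variation of 91.5% was higher than that of 97.8% of genes. Only 1 of the 4 control + A83-01 samples was above 3, that of replicate 1, and its level was 31.5 times lower than in the same mouse with vehicle. The other 3 were under that floor, as were the zeros of the *Smad2/3* cKO groups.

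*Acsbg1* encodes an acyl-CoA synthetase of the bubblegum family, which activates long-chain fatty acids and is best known from brain and steroid-producing tissue. It was at 792, 903 and 1628 in control + vehicle replicates 1, 2 and 3. With A83-01 it was 107, 60.5 and 38.5 in the same mice and 34.0 in the other mouse. *Smad2/3* cKO organoids had 34.9, 11.5, 5.43 and 3.47, and with A83-01 added 1.57, 3.55, 15.9 and 3.69. The control + vehicle samples again lay above all others. The means were 1108 ± 454 (SD, n = 3), 60.04 ± 33.4 (SD, n = 4), 13.8 ± 14.5 (SD, n = 4) and 6.17 ± 6.53 (SD, n = 4). These were 18.4-fold, 80.1-fold and 180-fold lower than control + vehicle in the order given. Control + A83-01 kept 5.42% of the control + vehicle level, the largest remainder among the 4 genes, against 1.06% for *Myo3b*. The lowest control + A83-01 sample, at 34.0, lay just below the highest *Smad2/3* cKO sample, at 34.9, so these groups overlapped by 1 sample, while control + A83-01 lay wholly above *Smad2/3* cKO + A83-01. Within a mouse the vehicle level was 7.40, 14.9 and 42.2 times the level with A83-01.

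**Figure D1:**
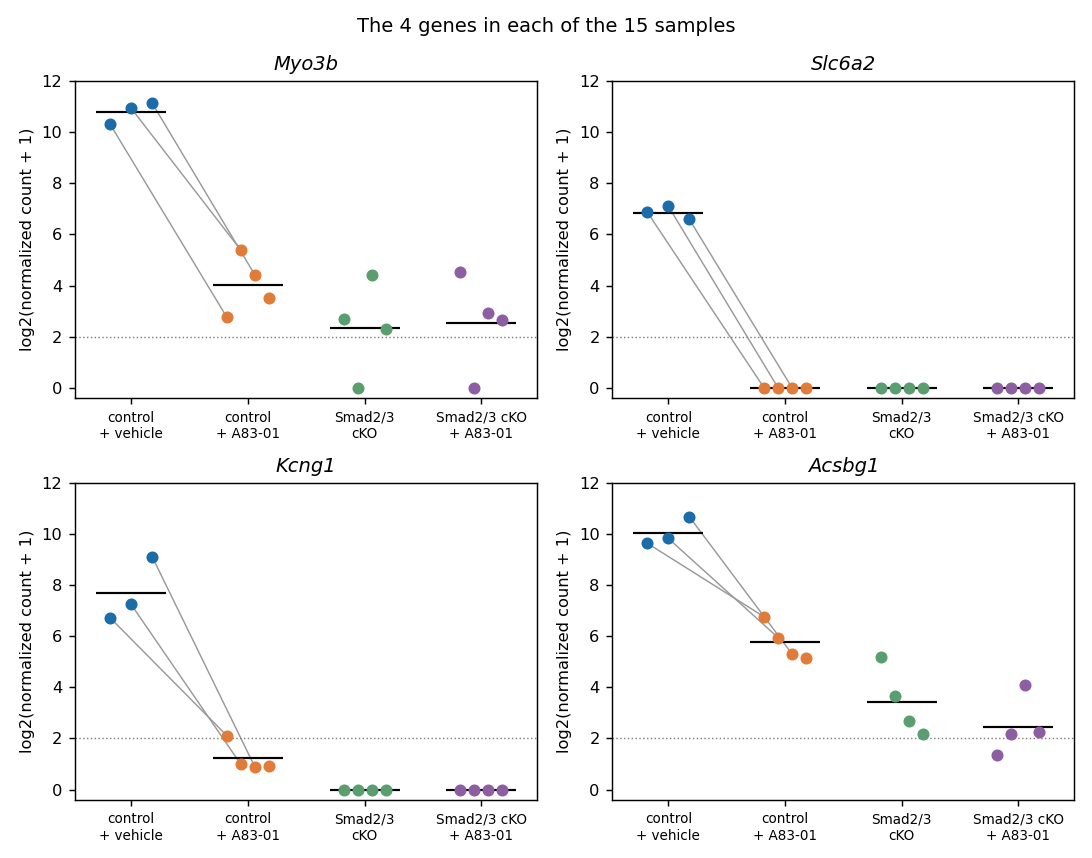
Level of each gene on the log2(normalized count + 1) scale in all 15 samples by group, 1 point per sample with the group mean of the log2 values as a black bar. Grey lines join samples of the same mouse number in control organoids and the dotted line marks a normalized count of 3. All 3 control + vehicle samples lie above all other samples for each gene, *Slc6a2* is at 0 in the other 12 samples, and *Acsbg1* with A83-01 alone keeps 34.0 to 107.

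The order of the group means was control + vehicle, then control + A83-01, then the 2 *Smad2/3* cKO groups for *Myo3b* and *Acsbg1*. For *Kcng1* the control + A83-01 mean of 1.51 lay under the floor of 3, so the 3 lower groups were not ranked. The 3 lower groups were equal for *Slc6a2*. The neighbouring groups *Smad2/3* cKO and *Smad2/3* cKO + A83-01 overlapped for *Myo3b* and *Acsbg1* and were both at 0 for *Slc6a2* and *Kcng1*, so their order does not exceed the spread between samples, and the same holds for control + A83-01 beside them for *Myo3b*. Replicate 3 gave the highest control + vehicle level of *Myo3b*, *Kcng1* and *Acsbg1* and the lowest of *Slc6a2*. Per kilobase of the longest coding transcript, the control + vehicle mean was 385 normalized counts for *Acsbg1*, 292 for *Myo3b*, 65.7 for *Kcng1* and 18.7 for *Slc6a2*. On that scale 73.6%, 68.2%, 41.5% and 27.8% of 15061 genes were lower. The 4 genes thus ranged from above to below the middle of all genes in the organoids that expressed them.

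All 4 genes passed the filter on low values (a mean of at least 10) in the 3 comparisons with control + vehicle, through the control + vehicle samples. For all 4 genes every sample of the other group lay below every control + vehicle sample in these comparisons, as the choice of the genes fixed. The background was 11.5% of 13009 genes in control + A83-01, 16% of 13149 genes in *Smad2/3* cKO and 16.9% of 13097 genes in *Smad2/3* cKO + A83-01, and nothing is read from the contrast. In the opposite direction, with every sample above every control + vehicle sample, the shares were 10.3%, 14.8% and 16.1%. The 3 comparisons share the same 3 control + vehicle samples. When *Smad2/3* cKO + A83-01 was compared with *Smad2/3* cKO none of the 4 passed the filter, and 0 of 12998 genes (0%) were called by limma, with 554 at an unadjusted p below 0.05. There 1.02% of genes had every sample lower and 1.88% every sample higher.

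Of 11596 genes at 20 or more in every control + vehicle sample, 3 (0.0259%) were at 3 or less in each of the other 12, namely *Slc6a2*, *Lrrn1* and *Acta1*. *Lrrn1*, a leucine-rich repeat membrane protein gene, was at 24.8 to 44.0 in control + vehicle and at most 2.12 elsewhere. *Acta1*, the skeletal muscle actin gene, was at 23.9 to 46.5 and at most 1.09 elsewhere. *Myo3b* and *Acsbg1* did not meet the lower limit because of residual values, and *Kcng1* missed it by its single value of 3.31. With the upper limit for the other samples set at 10, 21 genes had the pattern and *Kcng1* joined *Slc6a2* among them. The opposite pattern, high in all 12 other samples and low in control + vehicle, was about as common, with 5 genes at limits of 20 and 3 and 24 genes at limits of 20 and 10.

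Over the 15 samples, the log2 levels of the 4 genes had Pearson correlations of 0.831 (*Myo3b* and *Acsbg1*) to 0.965 (*Slc6a2* and *Kcng1*) with each other. These points fall into 1 high group of 3 samples and 12 low samples, so a correlation mainly restates the difference between groups. Genes like each of the 4 were sought among those with a control + vehicle mean of at least 10. That filter admits genes high in control + vehicle alone and leaves out genes low there, so it partly fixes the names below. The 5 genes most like *Myo3b* by Pearson r were *Palmd*, *Tpbg*, *Vav2*, *Tmcc3* and *Ttyh3* (r = 0.945 to 0.927). *Palmd* was at 108 to 124 in control + vehicle and 1.12 to 14.7 elsewhere. *Tpbg*, at 829 to 1003 against 217 to 422, and *Vav2*, at 504 to 593 against 254 to 470.2, followed the same order with much smaller differences.

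The genes most like *Slc6a2* were *Adgrl3*, *Acta1*, *Htr1b*, *Cdh10* and *Wfdc8* (r = 1.00 to 0.966), all of low level. *Adgrl3*, an adhesion receptor gene, was at 9.65 to 13.3 in control + vehicle and listed at 0 elsewhere. *Htr1b*, a serotonin receptor gene, was at 10.2 to 37.8 and at most 0.846 elsewhere. *Kcng1* was closest to *Chrna1*, *Slc6a2*, *Adgrl3*, *Lrrc66* and *Plekhm1* (r = 0.976 to 0.958). *Chrna1*, the muscle-type acetylcholine receptor subunit gene, was at 1884, 1817 and 4403 in control + vehicle replicates 1, 2 and 3 and at 29.8 to 157 elsewhere, and like *Kcng1* it was highest in replicate 3. *Acsbg1* was closest to *Tmprss11d*, *Slc4a11*, *Phyhd1*, *Galnt10* and *Cpe* (r = 0.982 to 0.934). *Tmprss11d*, an airway-type serine protease gene, was at 220 to 836 in control + vehicle and 0 to 18.4 elsewhere, and *Slc4a11*, a membrane transporter gene, at 3088 to 4642 against 332 to 1450. These names depended on the measure: with Spearman's rho or a pseudocount of 10, between 0 and 3 of the 5 genes of each list remained.

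Genes that work with the 4 proteins or belong to their families were taken from 4 lists of 143 genes in all, of which 101 were in the matrix. In control + A83-01 against control + vehicle 2 of the 72 tested rose and 0 fell, where 1.19% of 13009 genes rose and 1.08% fell (2.27% called). With the deletion 6 of 73 rose and 4 fell, where 4.08% of 13149 genes rose and 3.3% fell (7.38% called). With both deletion and inhibitor 8 of 71 rose and 7 fell, where 6.1% of 13097 genes rose and 5.64% fell (11.7% called). Their median log2 difference was −0.07, 0.27 and 0.24 in the same order, against −0.02, 0.00 and −0.01 over all genes tested. Of the relatives tested, 2.78% rose and 0% fell with A83-01. With the deletion 8.22% rose and 5.48% fell, and with both 11.3% rose and 9.86% fell. These shares rest on few genes and were not tested against the background, so nothing is read from the contrast. Without control + vehicle replicate 1 or 2, 3 relatives were called in *Smad2/3* cKO, where calls over all genes went from 970 to 280 or 288. Under the same omissions 7 were called in *Smad2/3* cKO + A83-01, where calls over all genes went from 1538 to 802 or 736. Without *Smad2/3* cKO replicate 1 there were 5 (524 genes) and without replicate 4 there were 4 (443 genes) in *Smad2/3* cKO. Without *Smad2/3* cKO + A83-01 replicate 4, 9 relatives and 935 genes were called in that group. In control + A83-01, 0 or 1 relatives and 49 to 312 genes (against 295) were called when any 1 of the 7 samples was left out. Without control + A83-01 replicate 1 or 2 the 1 relative called fell, so neither of the 2 that rose kept its call there.

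Of the relatives of *Myo3b*, 0 of 22 tested were called by limma with A83-01, 2 of 21 rose and 2 fell in *Smad2/3* cKO, and 1 of 22 rose and 3 fell in *Smad2/3* cKO + A83-01. Its closest paralog *Myo3a* was not analysed here. *Espn*, which encodes the actin-bundling protein espin that class III myosins carry to protrusion tips, was at 18.9 to 31.3 in control + vehicle. It was at 16.4 to 70.2 with A83-01, which did not pass the test (adjusted p = 0.575), rose to 84.1 to 172 in *Smad2/3* cKO (log2 difference 2.42, SE 0.37, adjusted p = 0.00351) and to 236 to 587 in *Smad2/3* cKO + A83-01 (log2 difference 3.81, SE 0.39, adjusted p = 0.000198). The *Espn* groups of *Smad2/3* cKO with and without A83-01 did not overlap either, at a log2 difference of 1.39 (adjusted p = 0.994). The related *Espnl* was at or below 3.43 in all samples, and *Morn4*, which encodes a myosin III cargo protein, was at 25.9 to 81.8 in control + vehicle and did not pass the test in any comparison.

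*Cdhr2*, a protocadherin gene of the links between brush border microvilli, was at 283 to 965 in control + vehicle and 0 to 37.5 with A83-01. It fell to 38.2 to 67.3 in *Smad2/3* cKO (log2 difference −3.36, adjusted p = 0.00144) and to 16.4 to 46.3 in *Smad2/3* cKO + A83-01 (−3.91, adjusted p = 0.000587). With A83-01 in control organoids its log2 difference was −5.14 (adjusted p = 0.0362), and with the mouse as a block it passed the test (adjusted p = 0.00706). *Myo6*, the gene of the motor that walks toward the minus end of actin, rose in *Smad2/3* cKO, from 2008 to 2334 up to 3811 to 5700.3 (log2 difference 1.11, adjusted p = 0.00351). *Myo1e*, a class I myosin gene, fell in *Smad2/3* cKO + A83-01 (adjusted p = 0.00858), from 1405 to 1742 down to 572 to 976. Of 30 relatives of *Myo3b* in the matrix, 21 or 22 were tested in each comparison.

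Among the relatives of *Slc6a2*, 27 of 42 were in the matrix. The other plasma membrane monoamine transporter genes of the family were low in every group: *Slc6a3* (dopamine) was at most 7.73 and *Slc6a4* (serotonin) at most 41.8 in any sample, and *Slc6a4* did not pass the test in any comparison. *Slc29a4*, the gene of a low-affinity monoamine transporter, was at 54.2 to 62.5 in control + vehicle and at most 9.996 in all other samples. It fell in *Smad2/3* cKO + A83-01 (log2 difference −3.55, SE 0.62, adjusted p = 0.00346), and its differences of −3.79 with A83-01 and −3.93 in *Smad2/3* cKO had adjusted p = 0.0294 and 0.0134. *Maoa*, the gene of the monoamine oxidase that breaks down noradrenaline and serotonin, was at 19.0 to 53.6 in control + vehicle and at most 7.23 in the other groups. It fell in *Smad2/3* cKO + A83-01 (−4.00, adjusted p = 0.00268) and not at the threshold with A83-01 (adjusted p = 0.0328) or in *Smad2/3* cKO (adjusted p = 0.0173).

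*Adra1b*, the α1B-adrenergic receptor gene, rose in *Smad2/3* cKO + A83-01, from 1.17 to 4.16 up to 16.4 to 30.7 (adjusted p = 0.00849). The amino acid transporter genes *Slc6a18* and *Slc6a20a* were at or near 0 in control + vehicle. *Slc6a18* was listed at 0 in all 3 control + vehicle samples and at 15.2 to 29.1 in *Smad2/3* cKO (adjusted p = 0.00361). *Slc6a20a* was at 0 to 0.838 and rose to 9.50 to 81.9 in *Smad2/3* cKO + A83-01 (adjusted p = 0.00705).

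Among the relatives of *Kcng1*, *Kcnb2*, the gene of a Kv2 subunit with which its protein assembles, was at most 8.97 in any of the 15 samples, and the paralog *Kcng2* at most 7.01. *Kcng3* and *Kcng4* were not analysed here. Of the 37 listed potassium channel genes 19 were in the matrix and 8 to 11 were tested. The only one called was *Kcnf1*, another modifier subunit gene, which was at 3.56 to 18.5 in control + vehicle and rose to 43.3 to 260.4 in *Smad2/3* cKO + A83-01 (log2 difference 3.38, SE 0.69, adjusted p = 0.00708).

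For *Acsbg1*, 25 of 32 related genes were in the matrix and 24 were tested. *Acsbg2* and *Acsbg3* were not analysed here. *Acsl3*, the long-chain acyl-CoA synthetase gene of lipid droplets, was at 6090 to 7587 in control + vehicle and 1792 to 4824 with A83-01 (adjusted p = 0.0423). It fell to 1818 to 3080 in *Smad2/3* cKO (log2 difference −1.62, SE 0.19, adjusted p = 0.00112) and to 1773 to 2297 in *Smad2/3* cKO + A83-01 (−1.74, SE 0.15, adjusted p = 7.30e-05). *Slc27a2*, a fatty acid transporter and acyl-CoA synthetase gene, fell in *Smad2/3* cKO (−2.75, adjusted p = 0.0078), from 258 to 660 down to 32.5 to 140.

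Of the 24 relatives of *Acsbg1* tested, 2 rose and 0 fell with A83-01, 3 rose and 2 fell in *Smad2/3* cKO, and 4 rose and 1 fell in *Smad2/3* cKO + A83-01. *Cd36*, the gene of a fatty acid uptake receptor, was at 153, 100 and 1089 in control + vehicle replicates 1, 2 and 3. It was at 5745, 6600 and 4990 in the same mice with A83-01 and at 2638 to 7545 in both *Smad2/3* cKO groups, with log2 differences of 4.53, 4.25 and 4.15 (adjusted p = 0.00589, 0.00451 and 0.00305). *Slc27a6*, the gene of another fatty acid transporter, was at 0 to 5.72 in control + vehicle and 32.4 to 116 with A83-01 (adjusted p = 0.00837, and 0.0125 with the mouse as a block), and it rose in both *Smad2/3* cKO groups. *Acss1*, which encodes mitochondrial acetyl-CoA synthetase, rose from 1145 to 1946 up to 3351 to 5618 with the deletion and 3368 to 5292 with both, and *Acsf2* rose in *Smad2/3* cKO + A83-01 (2.64, adjusted p = 0.000971).

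**Figure D2:**
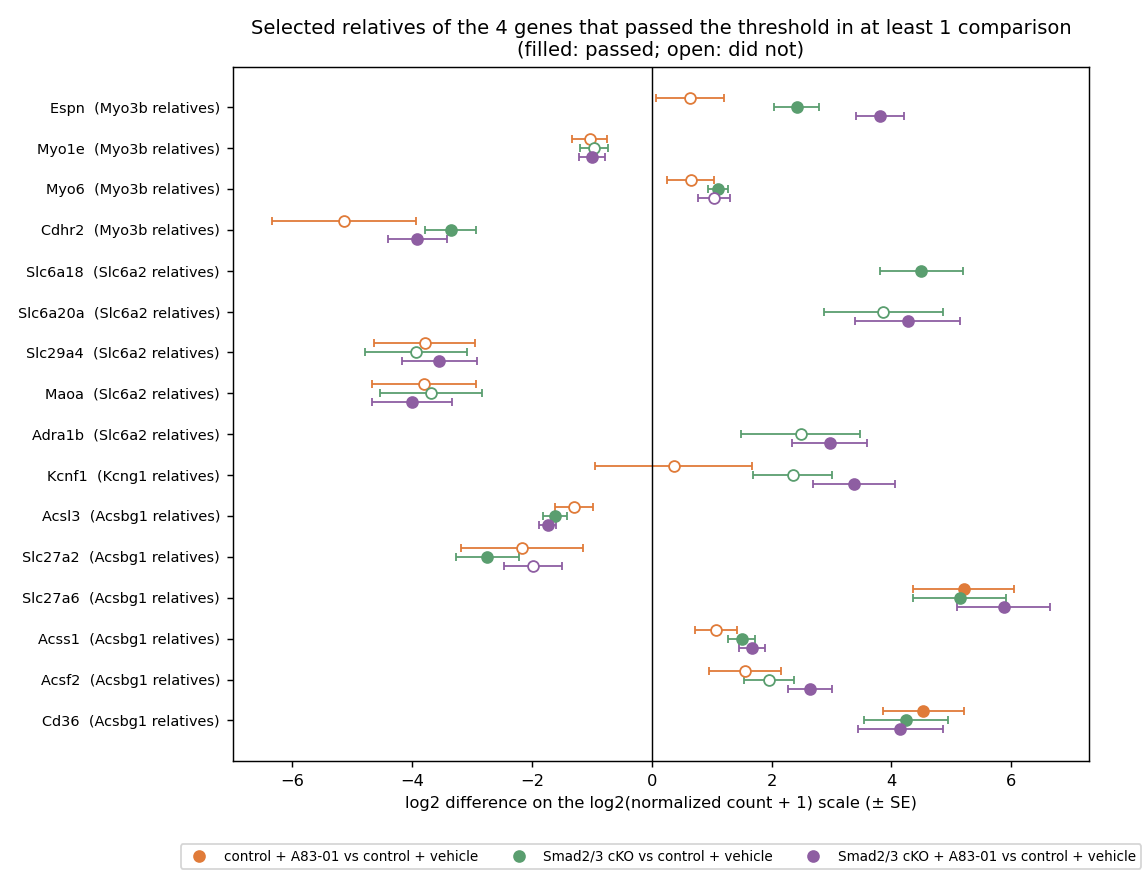
Log2 difference on the log2(normalized count + 1) scale with its SE for 16 relatives called in at least 1 comparison, in 3 comparisons with the same control + vehicle samples; filled points passed the test and open points did not. *Cdhr2*, *Slc29a4* and *Maoa* lie to the left of 0 and *Cd36*, *Slc27a6* and *Acss1* to the right in all 3 comparisons.

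The 5 nearest coding genes in the matrix on each side of the 4 genes gave 40 neighbours, 34 of them tested. In control + A83-01 1 fell and 0 rose, in *Smad2/3* cKO 1 fell and 1 rose, and in *Smad2/3* cKO + A83-01 3 fell and 1 rose. Over all genes 1.08% fell and 1.19% rose in the first comparison, 3.3% and 4.08% in the second and 5.64% and 6.1% in the third, so counts of 0 or 1 of 34 lie near the background. The median log2 difference of the neighbours was −0.09, −0.10 and −0.07. *Lpcat2*, the gene of a lysophosphatidylcholine acyltransferase, is the nearest measured gene before *Slc6a2*. It was at 509, 506 and 297 in control + vehicle replicates 1, 2 and 3, and at 108, 119 and 42.7 in the same mice and 66.2 in the other mouse with A83-01. It was at 30.7 to 103 in *Smad2/3* cKO and in *Smad2/3* cKO + A83-01 at 22.4 to 82.5, so the control + vehicle samples lay above all others. *Lpcat2* fell in all 3 comparisons, with log2 differences of −2.43, −2.89 and −3.08 (adjusted p = 0.00971, 0.00249 and 0.00111). Its adjusted p in control + A83-01 ran from 0.00466 to 0.0607 over the alternatives. It lost the call there without any 1 of the 3 control + vehicle samples or of control + A83-01 replicates 1, 3 and 4, and in *Smad2/3* cKO without control + vehicle replicate 1 or 2.

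On the other side of *Slc6a2*, *Ces1a* was at most 9.07 in any sample, and *Ces1d* and *Ces1e* did not pass the test. *Mmp2*, the next measured gene beyond *Lpcat2*, had a mean of 31.0 in control + vehicle and 1.76 to 3.27 in the other groups, with adjusted p = 0.0971, 0.0695 and 0.0793. The neighbours nearest to *Myo3b* were *Ubr3*, with log2 differences of −0.23, 0.60 and 0.92, and *Sp5*, with −1.55, −1.45 and −1.35, and neither passed the test. *Klhl23*, on the *Ubr3* side of *Myo3b*, fell in *Smad2/3* cKO + A83-01 (log2 difference −4.90, adjusted p = 0.00572), from 9.04 to 94.0 down to at most 1.98. Beside *Acsbg1*, *Idh3a* differed by 0.24, 0.18 and 0.23, while *Dnaja4* fell in *Smad2/3* cKO + A83-01 (−1.13, adjusted p = 0.00648) and *Slc35f2* rose in both *Smad2/3* cKO groups (1.38 and 1.66). None of the 10 neighbours of *Kcng1* was called. Among them *Tshz2* differed by −2.08, −1.50 and −1.40 (adjusted p = 0.0370, 0.0102 and 0.0439). *Dpm1* went the other way, by 0.84, 0.91 and 0.76 (adjusted p = 0.0241, 0.0136 and 0.0463). Without control + vehicle replicate 1 or 2 limma called 0 neighbours in *Smad2/3* cKO, and without control + vehicle replicate 3 or *Smad2/3* cKO replicate 1, 2 or 4 it called 1. In control + A83-01 there were 2 without replicate 2 of that group and 0 without any 1 of the other 6 samples. Without control + vehicle replicate 2 or 3 or *Smad2/3* cKO + A83-01 replicate 1 or 4 there were 2 called in the group with both. Calls over all genes moved as well when 1 sample was left out. They ran from 49 to 312 in control + A83-01 (295 with all samples) and from 280 to 992 in *Smad2/3* cKO (970). In *Smad2/3* cKO + A83-01 they ran from 736 to 1580 (1538).

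**Figure D3:**
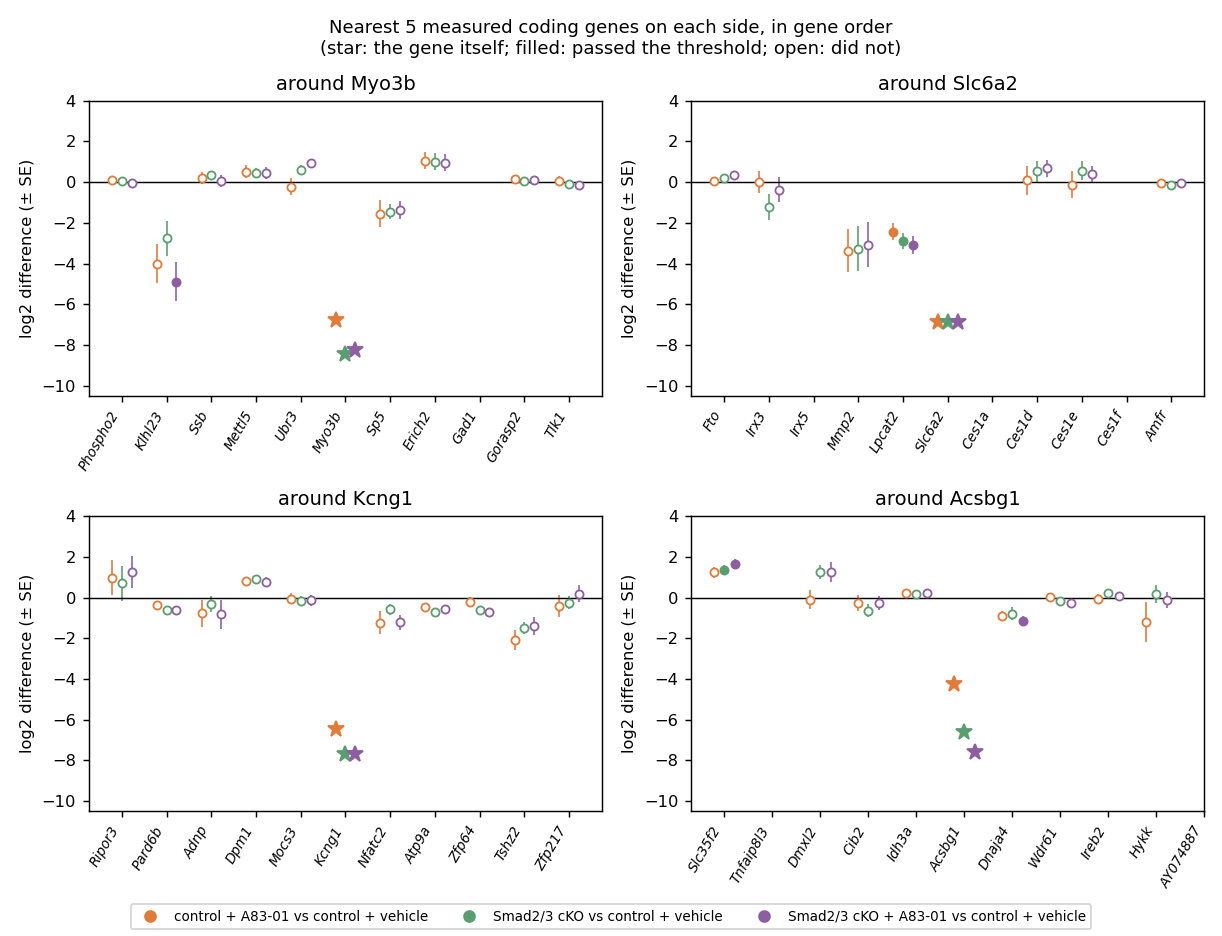
Log2 difference on the log2(normalized count + 1) scale (points with SE) of the nearest 5 measured coding genes on each side of each of the 4 genes, placed in gene order without distance; stars give the difference of the gene itself, which for *Slc6a2* and *Kcng1* depends on the added 1 because groups are at 0. Filled points passed the test. *Lpcat2* is the 1 neighbour that passed in all 3 comparisons.

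A list of 14 genes widely used as readouts of TGFβ signaling was set beside the 4 genes. In control + A83-01 5 of 13 tested fell (*Ccn2*, *Fn1*, *Fst*, *Pmepa1* and *Smad7*), and in *Smad2/3* cKO 4 of 14 fell (all of these but *Smad7*). With both, 9 fell and *Tgfbi* rose. Over all genes 1.08%, 3.3% and 5.64% fell in these comparisons. *Pmepa1*, which encodes a feedback inhibitor of the receptors, was at 821 to 1327 in control + vehicle, 28.4 to 60.1 with A83-01, 16.3 to 178 with the deletion and 2.46 to 17.2 with both. *Smad7*, the gene of the inhibitory SMAD, was at 191 to 270.3, 10.4 to 20.2, 13.8 to 90.4 and 4.70 to 19.0 in the same order. The median log2 difference of the list was −2.72, −1.18 and −2.45 against −0.02, 0.00 and −0.01 over all genes.

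Summed levels of some marker lists of other cell types moved with the 4 genes. Summed over the list, 5 of 10 sympathetic neuron markers in the matrix were at 42.9 to 77.8 in control + vehicle and 2.83 to 13.7 in the other groups. *Th*, *Phox2a*, *Prph* and *Snap25* of that list were among those not analysed here. *Stmn2* was at 28.5, 35.2 and 0 and *Dbh*, dopamine β-hydroxylase, at 0, 4.11 and 67.2 in control + vehicle replicates 1, 2 and 3, where *Slc6a2* was at 116, 136 and 95.3. *Gap43* was at 0.893 to 10.6 in control + vehicle and at most 3.42 elsewhere, and *Tubb3* was at most 4.40 in any sample. The glial list, with 5 of 6 markers in the matrix, was at 284 to 937 in control + vehicle and 16.4 to 138 in the other groups. Nearly all of this was *Aqp4*, at 611, 264 and 928 in control + vehicle, while *Gfap* was at 0 in all 3 of these samples and *S100b* at most 0.891. *Aqp4*, a water channel gene also found in epithelia, fell in *Smad2/3* cKO (adjusted p = 0.00693) and in *Smad2/3* cKO + A83-01 (adjusted p = 0.00312).

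The stromal list, 8 of 10 markers, was at 297 to 832 in control + vehicle and 28.4 to 285 in the other groups, 266 to 631 of it in control + vehicle from *Vcam1*. The smooth muscle list, 4 of 6 markers, was at 73.9 to 219 and 29.9 to 86.5, most of it in control + vehicle from *Acta2*. The endothelial list, 2 of 5 markers, was at most 27.6 in any sample. The leukocyte list, 5 of 6 markers, went the other way, at 1264 to 2897 in control + vehicle and 2118 to 8803 in the other groups, most of it *Cd68*, which rose in *Smad2/3* cKO + A83-01 (log2 difference 1.51, adjusted p = 0.00502). *Ptprc*, the gene of the pan-leukocyte antigen CD45, was at 12.5 to 38.5 in control + vehicle and 68.5 to 514 in the other groups. It rose in *Smad2/3* cKO (3.33, adjusted p = 0.00228) and in *Smad2/3* cKO + A83-01 (3.40, adjusted p = 0.00233), and with A83-01 its adjusted p was 0.0190. The macrophage marker *Adgre1* was at 351 in 1 *Smad2/3* cKO sample and at most 9.01 in the other 14. The part of these cell types in the levels of the 4 genes was not tested.

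**Figure D4:**
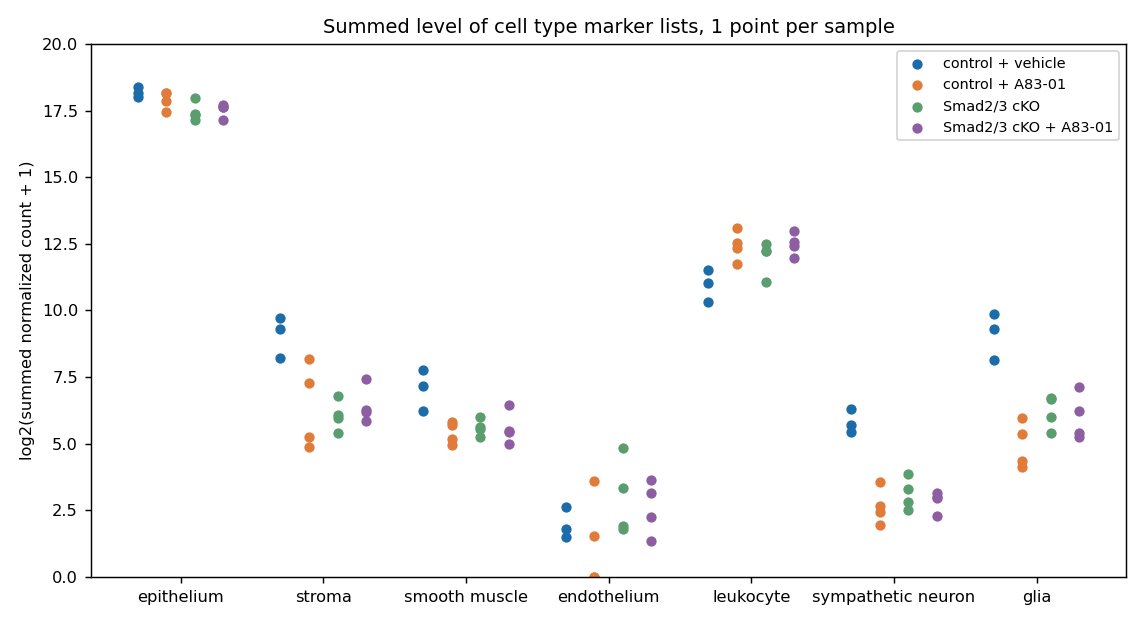
Summed normalized count of each marker list on the log2(sum + 1) scale, 1 point per sample, coloured by group. The epithelial list is the highest in all samples, and the sympathetic neuron list is at 42.9 to 77.8 in control + vehicle and at most 13.7 in the other groups.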

How the data were processed

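RNA was isolated from organoids by the authors, amplified with an ultra-low input cDNA kit and sequenced in paired reads. The authors assigned reads to mouse GRCm39 with Salmon 1.4.0 and tested them with DESeq2 1.32.0. The deposited signal values are the authors' normalized counts, reads estimated by gene and scaled by size factors, and the median ratio to the geometric mean over the 12745 genes above 0 in all samples was 1.01137 in each. Whole reads were not recovered, so no count test was run, and the reads behind each sample are not known from the files. Of 16729 genes, 16697 had a symbol, taken from the GRCm38 gene names.

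log2(normalized count + 1) was fitted with limma 3.58.1 (lmFit, eBayes with trend) in R 4.3.3, keeping genes whose mean reached 10 across both groups, with adjustment over all genes tested. Each script that ran the fits was tested on simulated data. p-values measure the spread between these cultures. Control + A83-01 and control + vehicle samples of the same replicate number come from the same mice, and their deviations from the group means correlated in every pair (r = 0.354 to 0.423, against a mean of −0.133 for other pairs). The named genes were the 4 genes, the 5 genes most like each, genes with the sharp pattern, called relatives and close partners, called and nearest neighbours, *Smad2*, *Smad3* and the TGFβ readouts. Other neighbours, marker genes and *Chrna1* per sample were added after their values were seen. The members and lists were chosen with earlier results of these data known. Python 3.11.15 and matplotlib 3.10.9 were used for tables and plots. The alternatives were other pseudocounts, filters, scalings and thresholds, a moderation without trend, the replicate block, all groups in 1 fit, and leaving out each sample. Some genes of the lists are counted but not reported here by name.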

Additional observations from a re-analysis of the deposited data

Results flagged for a closer look

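In 61 groups of 4 samples looked at for the 4 genes and their called relatives, 4 samples stood apart from the rest of their group by Dixon's criterion at the 95% level. Chance gives about 1 in 20. The criterion looks at the spread within a group and says nothing of the differences between groups. *Kcng1* in control + A83-01 was at 3.31 in replicate 1 and at 0.848 to 0.979 in the others, all near the lowest level that can be measured. *Acsbg1* in *Smad2/3* cKO + A83-01 was at 15.9 in replicate 3 and at 1.57 to 3.69, around the floor of 3, in the others. *Cdhr2* in *Smad2/3* cKO was at 67.3 in 1 sample and 38.2 to 42.8 in the others. *Acss1* in *Smad2/3* cKO + A83-01 was at 3368 in 1 sample and 5098 to 5292 in the others.

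The effect of A83-01 differed between genotypes for *Cd36* and *Fn1*, by a contrast in 1 limma fit of all 15 samples that was added after the data were seen and adjusted over 13066 genes, of which 72 had an adjusted p below 0.01. These were 2 of the 45 named genes in that fit. The log2 effect in *Smad2/3* cKO minus that in control was −4.63 for *Cd36* (SE 0.81, adjusted p = 0.00879) and 9.61 for *Fn1* (SE 1.10, adjusted p = 0.000298). *Cd36* had means of 448 and 5986 in control without and with A83-01 and 5113 and 4907 in *Smad2/3* cKO. *Fn1* had means of 3779, 9.81, 9.91 and 13.7 in the same order. Without A83-01, both genes in *Smad2/3* cKO were thus already near their control + A83-01 levels, and 2 *Fn1* samples there were at or under 3. The contrast cannot tell a different response to A83-01 from a level that already differed with the deletion.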

How the results depend on the processing

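The control + vehicle means of the 4 genes moved by less than 1 SD under quantile normalization or rescaling to the same total. The groups stayed apart under both scalings. Without any 1 control + vehicle sample, the mean ran from 1614 to 2105 for *Myo3b* and from 106 to 126 for *Slc6a2*. It ran from 127 to 351 for *Kcng1* and from 848 to 1265 for *Acsbg1*. Leaving out 1 of 3 samples cannot move a mean by 1 SD, so that limit decides nothing there. Counts of calls moved too, and the cause was not tested. They are given for control + A83-01, *Smad2/3* cKO and *Smad2/3* cKO + A83-01, each against control + vehicle, beside 295, 970 and 1538 genes, 2, 10 and 15 relatives and 1, 2 and 4 neighbours. At an adjusted p below 0.05 there were 955, 2413 and 2930 genes, 6, 26 and 27 relatives and 5, 8 and 10 neighbours. In control + A83-01 there were 146 genes, 1 relative and 0 neighbours with no filter, and 655, 5 and 4 with all 4 groups in 1 fit. There, a pseudocount of 0.1 and a minimum mean of 50 each gave 1 relative and 0 neighbours, a pseudocount of 10 gave 4 relatives, and quantile normalization gave 0 neighbours. Without the trend there were 0 relatives and 0 neighbours in control + A83-01, and 452 genes and 6 relatives in *Smad2/3* cKO. Rescaling to the same total gave 4 neighbours in *Smad2/3* cKO. That rescaling shifted the median log2 difference of all genes to −0.12, −0.09 and −0.15 and the share of calls that were higher from 55.3% to 45.0% in *Smad2/3* cKO and from 52.0% to 39.3% in *Smad2/3* cKO + A83-01. Over the named calls and alternatives, a call was kept 655 times and lost 234 times, and 0 changed direction. The threshold of 0.05 keeps every call by construction. The replicate block is counted also in comparisons where samples share only a number. The tally is therefore a description and does not measure how stable the calls are. Among those most often lost were the calls of *Ltbp2* (13 alternatives), *Adra1b* and *Tgfbi* (11), *Myo1e* (10), *Kcnf1* and *Slc6a20a* (9), and *Cdkn2b* and *Dnaja4* (8) in *Smad2/3* cKO + A83-01, of *Slc27a2* (9) and *Slc35f2* (8) in *Smad2/3* cKO, and of *Lpcat2* (11), *Slc27a6* (10), *Cd36* and *Fst* (8) in control + A83-01.

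With the replicate number as a block control + A83-01 had 399 genes, 2 relatives and 1 neighbour, and among the named genes the block changed the calls of *Cdhr2* and *Slc27a6* alone. The other comparisons share only a number (r from −0.169 to 0.0774 for the 6 same-numbered pairs with control + vehicle, and −0.166 to 0.375 between the *Smad2/3* cKO groups). The 1 mouse number that both *Smad2/3* cKO groups share joins *Smad2/3* cKO replicate 2 to *Smad2/3* cKO + A83-01 replicate 1 (r = 0.355), a pair the block does not join, and without either sample there were 0 calls. There the block gave 211 genes, 2 relatives and 0 neighbours in *Smad2/3* cKO and 568, 4 and 0 in *Smad2/3* cKO + A83-01. Leaving out each sample in turn gave 49 to 312, 280 to 992 and 736 to 1580 genes, 0 to 1, 3 to 12 and 7 to 17 relatives, and 0 to 2, 0 to 2 and 2 to 5 neighbours. *Smad2/3* cKO + A83-01 against *Smad2/3* cKO had 0 calls under every alternative run.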
